A study of Rattus norvegicus with 74 samples.

Results

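The libraries described here are RNA-seq of mitochondria isolated from the red inner gastrocnemius, a hindlimb muscle rich in oxidative fibres, of sedentary rats (MT_Sed). They were divided by the rat number in the library titles: the lower range holds the 7 libraries of rats 4, 7, 8, 11, 12, 15 and 16, and the upper range the 8 libraries of rats 19, 20, 23, 24, 29, 30, 31 and 32. These are 15 of the 74 libraries of the series, and each comes from a separate rat. The labels give no reason for the numbering and name no batch or cohort, so the ranges are called by their numbers. Every difference below is the upper range minus the lower range.

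All the rats were wild-type Wistar Kyoto males, sampled at 9 weeks of age, housed in pairs that the labels do not identify, and given tap water containing 8% (v/v) deuterium oxide. The sedentary rats were placed on a treadmill that did not move. The 15 trained rats (MT_ExT, 7 in the lower and 8 in the upper range of numbers) ran for 4 weeks, on 5 days a week, and are used here because they are other animals prepared in the same way. Whole muscle of the same sedentary rats (SM_Sed) gave the matched tissue. Sampling followed the last session by 24 h. Mitochondria were captured with an antibody and treated with RNase-A and proteinase-K, and 10 ng of their RNA entered a total RNA kit with ribosomal depletion, against 50 ng for whole muscle.

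Mitochondria keep a small circular genome that is transcribed as long precursors from both strands. Cutting out the tRNAs releases the mRNAs of respiratory chain subunits and the rRNAs of the mitochondrial ribosome. All other mitochondrial proteins are made from nuclear genes, most of them in the cytosol, and imported. RNase treatment of isolated mitochondria is meant to remove RNA outside the membranes. A preparation of this kind is therefore read by its mitochondrial transcripts and by the nuclear-encoded RNA that is still counted.

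Total counts were 712067 to 8344505 in the lower range and 888159 to 4091353 in the upper range, and 3 counts, the smallest abundance taken as measurable, equalled 0.360 to 4.21 CPM, the count relative to the scaled library total. The mitochondrial genome took 51.8 ± 24.6% of counts in the lower range (SD, n = 7) and 49.5 ± 22.9% in the upper range (SD, n = 8; exact permutation test, two-sided, p = 0.844), so its share varied far more within the ranges than between them. Genes of the contractile apparatus and muscle metabolism took 0.656 ± 0.320% and 0.772 ± 0.422% of nuclear-encoded counts, against 41.6% and 39.2% in whole muscle. Defining muscle genes were thus present at a low share, and no member of the muscle lists was at 0. Nuclear-encoded genes with any count numbered 27072 to 28680 per mitochondrial library. Whole muscle had 16904 to 17832 such genes, at 20876971 to 32055355 total counts. Whether counts spread over so many genes reflect transcript levels was not tested. Fewer cells of a type and less RNA per cell cannot be told apart in such bulk libraries.

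Across the nuclear-encoded genes, the first principal component of log2 CPM, which held 16.84% of the variance, placed all 7 lower libraries between -20.1 and -7.44 and all 8 upper libraries between -4.74 and 56.06. The ranges did not overlap on it. Rats 20 (56.06) and 24 (36.23) stood apart from the other upper libraries, and the library of rat 15 lay at 61.41 on the second component, where no other library exceeded 3.98. Rat 15 also had the largest share of mitochondrial-genome counts, 92.2%, and 3.68% of its nuclear-encoded counts on nuclear rRNA genes. Differences called within sedentary mitochondria are given with and without these 3 libraries.

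**Figure D1:**
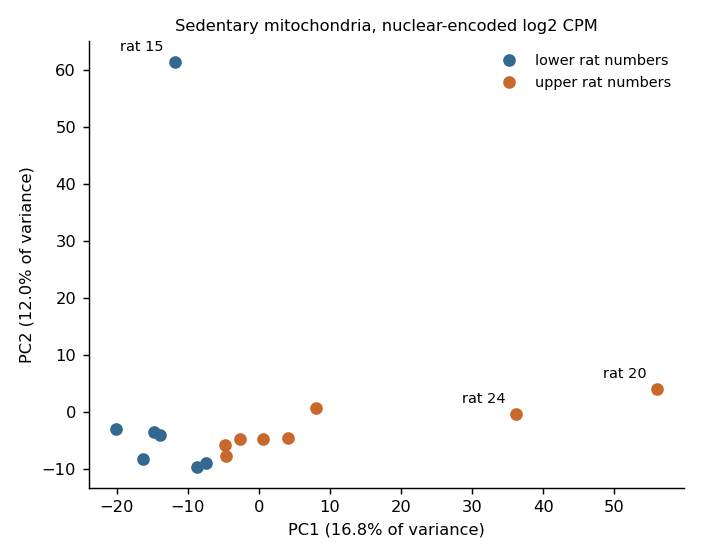
Principal components of nuclear-encoded log2 CPM in the 15 libraries of sedentary mitochondria; each point is a library, coloured by range of rat numbers. The lower range lies at -7.44 or below on the first component and the upper range at -4.74 or above, with rats 20 and 24 far to the right and rat 15 far up the second component.

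The number and the composition of nuclear-encoded counts differed between the ranges. The number per library also moves with sequencing yield, and more nuclear-encoded RNA and deeper sequencing cannot be told apart. Nuclear-encoded counts per library, the shares of long non-coding RNA (lncRNA) and of small nuclear RNA (snRNA, the RNA core of splicing complexes), and the share of odorant, vomeronasal and trace amine receptor genes were all higher in the upper range. These receptors are sensory genes not known for expression in muscle. They were the 4 of 20 library measures that passed at a Benjamini-Hochberg adjusted p (q) under 0.05, each by a two-sided exact permutation test over all 6435 regroupings of 7 and 8 libraries.

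Nuclear-encoded counts on the log2 scale were 18.95 at the lowest, 19.07 at the median and 19.94 at the highest in the lower range, and 19.55, 19.66 and 20.01 in the upper range. The means were 19.21 ± 0.338 (SD, n = 7) and 19.69 ± 0.149 (SD, n = 8), a rise of 1.39-fold (exact permutation p = 0.00513, q = 0.0311). All but 1 of the 7 lower libraries lay below every upper library, and rat 11, at 19.94, lay among them.

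lncRNA genes took 5.59% of nuclear-encoded counts at the lowest, 6.02% at the median and 6.34% at the highest in the lower range, and 6.17%, 6.35% and 6.76% in the upper range. Their mean share rose from 6.01 ± 0.253% to 6.38 ± 0.199% (SD, n = 7 and 8; exact permutation p = 0.00528, q = 0.0311). The ranges overlapped, with the highest lower libraries inside the span of the upper ones. In whole muscle of the same rats the lncRNA share was 0.619% and 0.631% (exact permutation q = 0.599), and the range difference was larger in mitochondria than in muscle by 0.359 percentage points when taken per rat (exact permutation q = 0.0354 over 35 such tests). Because the muscle share moved so little, this contrast nearly repeats the difference of 0.370 percentage points within mitochondria and is no separate result.

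snRNA genes took 0.202%, 0.223% and 0.226% at the lowest, median and highest in the lower range, and 0.208%, 0.254% and 0.283% in the upper range. The share rose from 0.219 ± 0.00890% to 0.252 ± 0.0249% (SD, n = 7 and 8; exact permutation p = 0.00622, q = 0.0311). Only rat 23, at 0.208%, kept the upper range from lying wholly above the lower one. The receptor share was 1.38%, 1.59% and 1.72% at the lowest, median and highest in the lower range, and 1.62%, 1.75% and 1.99% in the upper range. It rose from 1.56 ± 0.117% to 1.77 ± 0.134% (exact permutation p = 0.00528, q = 0.0311), while whole muscle held 0.00115% and 0.00121% (q = 0.656). The per-rat difference between mitochondria and muscle widened by 0.216 percentage points (exact permutation q = 0.0354). Because muscle held so small a share, this contrast nearly repeats the difference within mitochondria and is no separate result.

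These calls were sensitive to single libraries. Each was lost without rat 4 (q = 0.0733), rat 7 (0.0566), rat 8 (0.0533 to 0.0616), rat 15 (0.0573), rat 16 (0.0566), rat 20, 24, 30 or 32 (0.0554 each) or rat 29 (0.0544 to 0.0554), and the 3 shares also without rat 11 (0.0649). All 4 passed without rat 12, 19, 23 or 31. With rats 15, 20 and 24 all left out, an alternative chosen after seeing the data, the differences were 0.51 on the log2 scale and 0.210, 0.0243 and 0.133 percentage points, with q = 0.130 for each by the same exact permutation test.

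**Figure D2:**
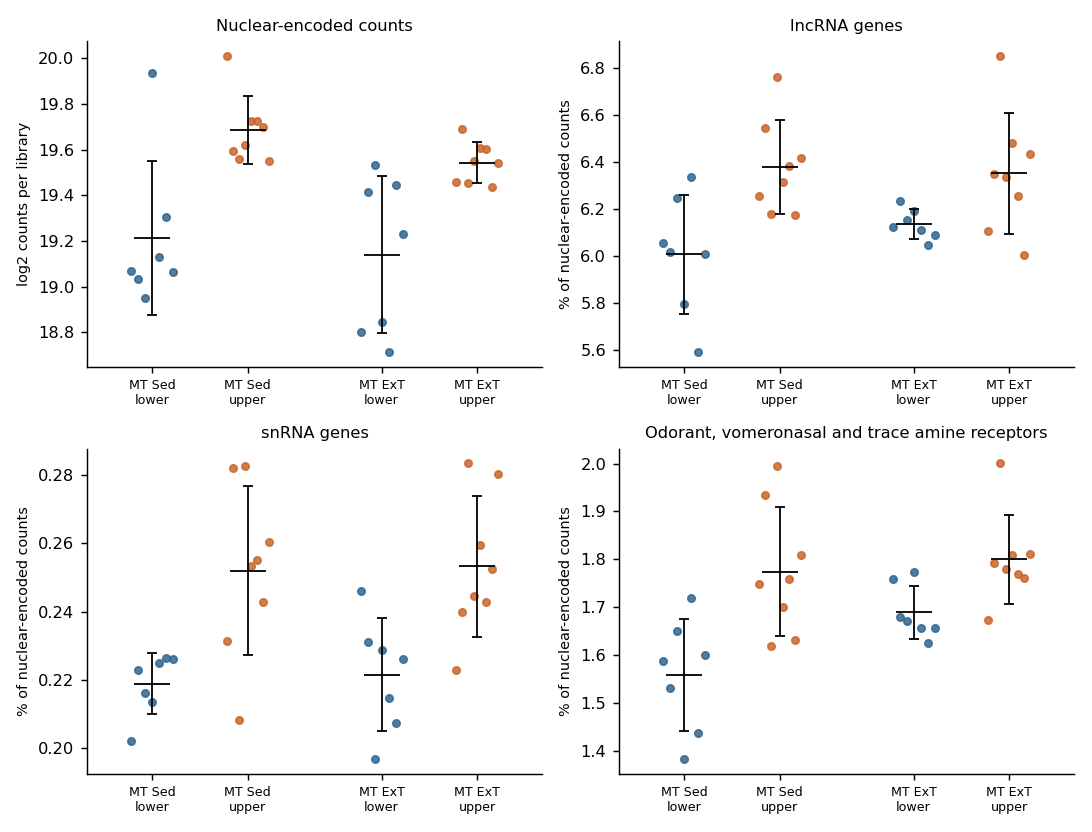
Library measures in sedentary (MT Sed) and trained (MT ExT) mitochondria by range of rat numbers; points are libraries, the horizontal bar is the mean and the error bar the SD. In MT Sed the means rose from 19.21 to 19.69 (log2 counts), 6.01 to 6.38% (lncRNA), 0.219 to 0.252% (snRNA) and 1.56 to 1.77% (receptors), with overlap in every panel.

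The remaining measures did not pass. rRNA genes took 75.6 ± 3.94% and 79.4 ± 3.72% of mitochondrial-genome counts (exact permutation q = 0.177), and mitochondrial mRNA genes 24.1 ± 3.82% and 20.2 ± 3.48% (q = 0.154). Nuclear genes for respiratory chain subunits and some of their assembly factors took 0.211% and 0.218% of nuclear-encoded counts (q = 0.602). The share of snoRNA genes, guides of rRNA modification, was 0.321% and 0.337% (q = 0.137).

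Trained mitochondria, from other rats, were split at the same number. Nuclear-encoded counts rose 1.32-fold in the upper range (exact permutation q = 0.0124), the snRNA share rose from 0.222% to 0.253% and the receptor share from 1.69% to 1.80% (q = 0.0305 each), and the lncRNA share was 6.14% and 6.35% (q = 0.124). The rRNA share of mitochondrial-genome counts rose from 74.0% to 81.0%, and the mRNA share fell from 25.6% to 18.8% (q = 0.0124 each). No measure had a range difference that differed between the arms in 38 exact permutation tests, in which the smallest unadjusted p was 0.111 and the smallest q 0.687. In whole muscle the same 2 mitochondrial shares were 74.3% and 79.0% for rRNA and 25.7% and 21.0% for mRNA (q = 0.0177 each).

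Of 19327 genes tested with edgeR's quasi-likelihood test, 5 (0.0259%) passed at an adjusted p under 0.05, and 2338 (12.1%) had an unadjusted p under 0.05, 1091 of them higher (5.64%) and 1247 lower (6.45%). Ntn1, Cacna1h and Ppard were lower in the upper range (0.0155% of the genes tested called lower), and Gria4 and Mgam were higher (0.0103% called higher). Each had an adjusted p of 0.0489. With DESeq2, 18 genes passed, 3 of them shared with these 5.

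Ntn1 encodes netrin-1, a secreted guidance molecule for growing axons. It was at 32.5 CPM at the lowest, 46.9 at the median and 61.2 at the highest in the lower range, and at 24.6, 28.6 and 39.1 CPM in the upper range, from 38 to 141 and 45 to 95 counts. It fell from 45.6 ± 9.44 to 30.4 ± 4.81 CPM, a log2 change of -0.60 (SE 0.12, edgeR adjusted p = 0.0489). The ranges overlapped through rats 8 and 12, the lowest of the lower range. In trained mitochondria the log2 change was -0.07 (edgeR adjusted p = 0.925), and in whole muscle 0.18 (adjusted p = 0.392).

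Cacna1h encodes the pore of the Cav3.2 T-type calcium channel, which opens at low voltage. Its values were 63.3, 71.5 and 84.8 CPM at the lowest, median and highest in the lower range and 44.7, 51.2 and 61.1 CPM in the upper range, from 74 to 171 and 78 to 120 counts. Every upper library lay below every lower library, as in 16 of the genes tested (0.0828%). The opposite order was seen in 21 (0.109%), which makes 37 genes without overlap (0.191%). The log2 change was -0.47 (SE 0.10, edgeR adjusted p = 0.0489). In trained mitochondria it was -0.42 (SE 0.11, adjusted p = 0.142), close in size but not past the threshold, and in whole muscle -0.12.

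Ppard encodes a nuclear receptor that responds to fatty acids and controls genes of lipid oxidation in muscle. It was at 24.4, 29.4 and 37.8 CPM at the lowest, median and highest in the lower range and at 12.0, 18.7 and 23.9 CPM in the upper range, from 30 to 87 and 24 to 47 counts. Its ranges did not overlap either, and the log2 change was -0.69 (SE 0.15, edgeR adjusted p = 0.0489). In trained mitochondria it was -0.07 and in whole muscle -0.08. Counts on Ppard were thus lower by 1.62-fold in sedentary mitochondria of the upper range, with no change that passed the test in the muscle those mitochondria came from.

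Gria4 encodes a subunit of AMPA-type glutamate receptors, which carry fast excitatory signals in the brain. Its values were 10.6, 14.5 and 18.97 CPM at the lowest, median and highest in the lower range and 18.1, 24.6 and 35.0 CPM in the upper range, from 13 to 34 and 35 to 64 counts. The overlap was narrow, between rat 12 and rat 29. The log2 change was 0.78 (SE 0.17, edgeR adjusted p = 0.0489), with 0.11 in trained mitochondria and -0.23 in whole muscle.

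Mgam encodes maltase-glucoamylase, a digestive enzyme of the intestinal brush border. It was at 72.6, 92.2 and 103 CPM at the lowest, median and highest in the lower range and at 95.8, 124 and 141 CPM in the upper range, from 101 to 202 and 188 to 310 counts. The log2 change was 0.42 (SE 0.09, edgeR adjusted p = 0.0489). The deposited table carries this symbol on 2 genes, and the other had a log2 change of 0.34 (SE 0.15, adjusted p = 0.315). How reads were shared between such copies is not given in the sources used here. In trained mitochondria the change of the called gene was 0.13, and in whole muscle the gene did not pass the filter on low counts.

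The gene calls depended on single libraries. No gene passed without rat 4, 7, 11, 16, 20, 24, 30 or 32, and the adjusted p of these 5 genes in edgeR was then 0.0607 to 0.221. Without rat 15, 1 gene passed, none of the 5 (0.0738 to 0.0986). Without rat 19 only Ntn1 passed (0.0233), without rat 8 Ntn1 (0.0192) and Cacna1h (0.0474), without rat 12 Ntn1 (0.0359), Cacna1h and Gria4 (0.0424 each), and without rat 29 Gria4 (0.0353), Mgam (0.0372) and 2 others. All 5 passed without rat 23, when 52 genes did (adjusted p = 0.0408 each), and without rat 31, when 20 did (0.0167 to 0.0330). With rats 15, 20 and 24 left out, 4 genes passed, with Ntn1 (0.0419) shared. Every one of these fits kept the sign of all 5 changes.

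**Figure D3:**
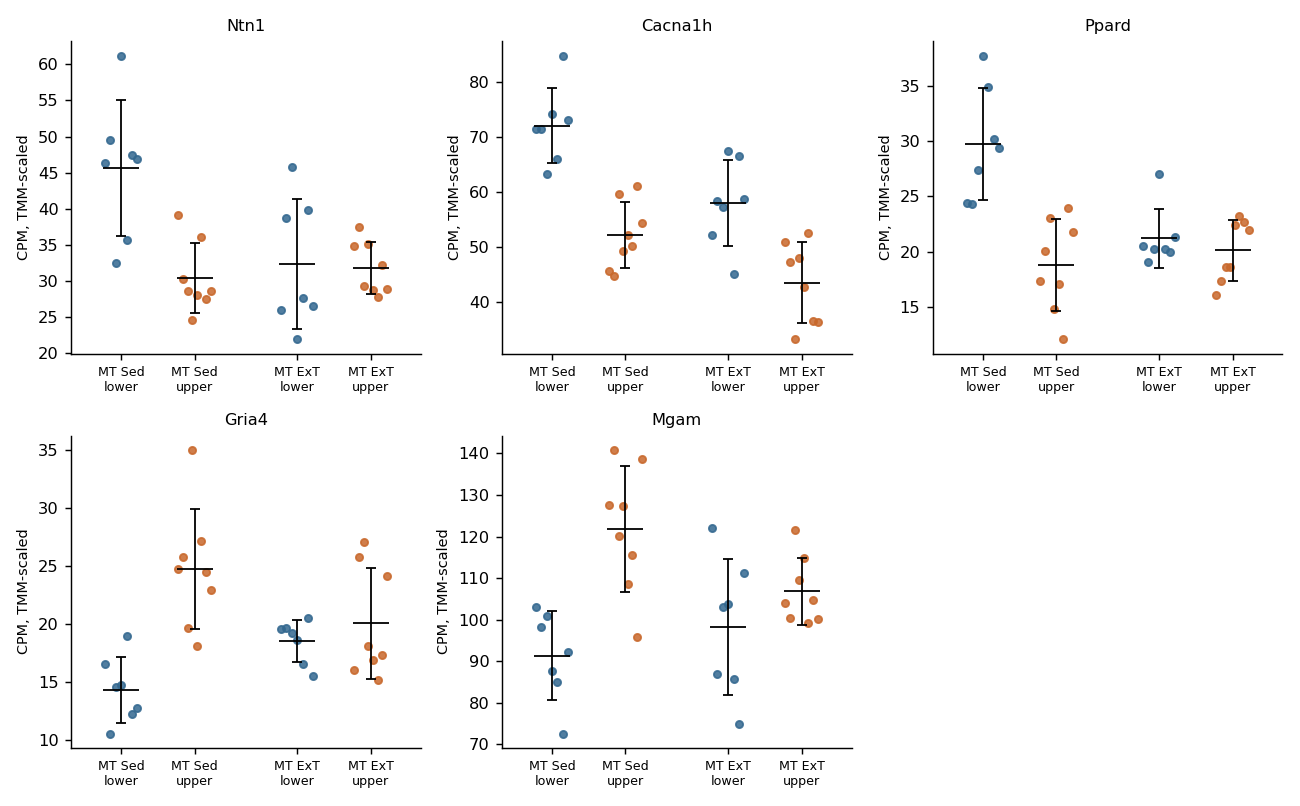
Levels of the 5 called genes in sedentary (MT Sed) and trained (MT ExT) mitochondria, in CPM scaled with TMM factors; points are libraries, bars the mean and error bars the SD. In MT Sed, Ntn1, Cacna1h and Ppard lie lower in the upper range (30.4, 52.1 and 18.7 CPM on average, from 45.6, 72.0 and 29.8), and Gria4 and Mgam higher, while in MT ExT the log2 change of Cacna1h was -0.42 and those of the other genes lay between -0.07 and 0.13.

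None of the 5 genes had a range difference that differed between sedentary and trained mitochondria: edgeR's interaction test called 0 of 21400 genes (0.0%; 878, or 4.1%, at an unadjusted p under 0.05, and 0 with DESeq2), and the adjusted p was 0.999 for each of the 5. That test does not show that the arms acted alike. Its estimate for Ntn1 was -0.53 (SE 0.18).

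The next 4 genes in order of p shared an adjusted p of 0.0691 and did not pass. Aatk, a kinase of nerve cells, was at 45.0 ± 6.21 and 30.9 ± 6.44 CPM (log2 change -0.55). Scn2a, a voltage-gated sodium channel of neurons, was at 31.8 ± 6.58 and 45.9 ± 5.82 CPM (0.54). Dock6 was at 80.7 ± 6.94 and 60.0 ± 9.13 CPM (-0.43), and Hnrnpu, an RNA-binding protein of the nuclear matrix, at 20.1 ± 6.59 and 34.4 ± 10.3 CPM (0.77). All of these ranges overlapped.

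The sequence upstream of a gene's start is shown for Gria4 and these 4 genes. The reason is a weak trend of the change between the ranges with the share of G and C in this region (Spearman's rho -0.224). It was seen across the protein-coding genes with a value, as described below. Each stretch is the 250 bases before the annotated start in RefSeq (build GRCr8), written 5′ to 3′ on the gene's strand, with CG dinucleotides in capitals. Ntn1, Cacna1h and Ppard have no entry in the table used, and Mgam was left out because its symbol is on 2 genes.
Gria4, chr8:10319882-10320131, minus strand: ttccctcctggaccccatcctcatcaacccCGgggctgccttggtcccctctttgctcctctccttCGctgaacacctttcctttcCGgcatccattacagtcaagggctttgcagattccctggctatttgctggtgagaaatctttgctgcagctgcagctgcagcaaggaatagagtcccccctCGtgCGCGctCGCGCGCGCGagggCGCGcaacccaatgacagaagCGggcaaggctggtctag
Aatk, chr10:105825619-105825868, minus strand: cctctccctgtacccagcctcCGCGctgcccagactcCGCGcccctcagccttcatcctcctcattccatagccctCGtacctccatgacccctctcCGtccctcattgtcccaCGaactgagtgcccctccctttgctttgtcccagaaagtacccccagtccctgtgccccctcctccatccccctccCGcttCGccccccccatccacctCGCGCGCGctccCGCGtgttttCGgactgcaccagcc
Dock6, chr8:28670649-28670898, minus strand: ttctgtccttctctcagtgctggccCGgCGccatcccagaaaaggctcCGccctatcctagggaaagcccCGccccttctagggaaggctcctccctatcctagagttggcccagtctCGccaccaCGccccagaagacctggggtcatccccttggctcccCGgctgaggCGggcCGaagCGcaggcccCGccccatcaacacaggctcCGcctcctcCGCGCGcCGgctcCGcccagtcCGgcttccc
Scn2a, chr3:70710706-70710955, plus strand: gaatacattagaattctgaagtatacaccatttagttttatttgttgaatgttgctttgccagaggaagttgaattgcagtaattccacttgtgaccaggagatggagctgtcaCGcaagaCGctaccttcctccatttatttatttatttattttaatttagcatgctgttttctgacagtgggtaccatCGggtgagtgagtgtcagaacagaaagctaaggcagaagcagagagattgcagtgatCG
Hnrnpu, chr13:92618581-92618830, minus strand: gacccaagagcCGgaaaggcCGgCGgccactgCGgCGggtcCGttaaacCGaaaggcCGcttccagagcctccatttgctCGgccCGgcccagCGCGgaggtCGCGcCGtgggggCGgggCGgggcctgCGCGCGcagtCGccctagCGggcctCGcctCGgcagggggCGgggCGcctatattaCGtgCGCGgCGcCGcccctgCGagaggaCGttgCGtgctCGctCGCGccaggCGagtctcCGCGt

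The windows of Aatk and Dock6, both lower in the upper range, held 66.0% and 68.8% G and C, with 16 and 18 CG dinucleotides. That of Scn2a, higher in the upper range, held 39.6% and 4. Gria4 (59.6%, 14 CG) lay between them, and Hnrnpu, also higher, had the richest window of the 5 at 75.2% with 40 CG, so the direction of change did not follow base composition in all 5. The median over all 33469 windows in the table was 51.2% G and C and 5 CG. Such a count is a description of these letters and identifies no binding site.

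Among the 30 genes with a symbol and the smallest p, whose adjusted p ran from 0.0489 to 0.0791, 10 were higher and 20 lower in the upper range. Besides Cacna1h and Ppard, those whose ranges did not overlap included Taf1d and Kcnh2. Taf1d, a subunit of the RNA polymerase I initiation complex, was at 8.65 ± 3.26 and 15.9 ± 1.91 CPM (log2 change 0.85). Kcnh2, the hERG potassium channel, was at 44.4 ± 4.22 and 31.3 ± 6.55 CPM (-0.49). Neither passed the test. The odorant receptor Olr1627 had the largest difference of the 30, from 6.25 ± 2.41 to 12.9 ± 4.197 CPM (log2 change 1.03, edgeR adjusted p = 0.0791).

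The sign of these differences was mostly repeated in the trained rats. Of the 30 genes, 29 had the same sign in trained mitochondria, and 16 of the 26 tested in whole muscle had the same sign there. Over all 18633 genes tested in both, 63.2% had the same sign in sedentary and trained mitochondria, and among the 2279 with an unadjusted p under 0.05 in sedentary mitochondria 1786 (78.4%) did. In whole muscle the same figures were 54.9% of 12653 genes and 955 of 1639 (58.3%). Of the genes with an unadjusted p under 0.05 in both kinds of mitochondria, 378 had the same sign and 6 the opposite sign, against 149 and 82 for mitochondria and whole muscle. Spearman's rho of the log2 changes across genes was 0.343 with trained mitochondria and 0.113 with whole muscle, as a description over genes that share libraries. No single gene passed in trained mitochondria (0 of 18961, 0.0%, with edgeR, 1750, 9.23%, at an unadjusted p under 0.05, and 8 with DESeq2). In whole muscle 35 of 13515 genes passed (0.259%), and 2177 (16.1%) had an unadjusted p under 0.05.

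Genes with little G and C upstream gained a larger share of counts in the upper range, and those with much lost some. Promoter GC, the share of G and C in the 300 bases from 250 before to 50 after the start, was available for 14762 of 18110 protein-coding genes matched to RefSeq by symbol (81.5%). It stands for the composition of the gene's surroundings, because the composition of the transcripts themselves was not measured. These measures, and the span and rRNA ratio below, were added after the data had been seen, as a family of 5.

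The quintile of genes with the least promoter GC (at most 47.7%) took 11.3% of the counts on the genes with a value at the lowest, 11.9% at the median and 12.5% at the highest in the lower range, and 12.2%, 12.8% and 13.7% in the upper range. The share rose from 12.0 ± 0.413% to 12.9 ± 0.558% (SD, n = 7 and 8; exact permutation q = 0.00596). The quintile with the most promoter GC (at least 67.2%) took 25.02%, 25.4% and 25.8% in the lower range and 24.1%, 24.7% and 25.1% in the upper range. It fell from 25.3 ± 0.244% to 24.7 ± 0.351% (exact permutation q = 0.00466). The ranges touched in both measures, but the calls held with any library left out (q at most 0.0208 and 0.00999) and with rats 15, 20 and 24 left out together (q = 0.0361 and 0.0162). Without these 3 rats the differences were 0.591 and -0.490 percentage points, against 0.905 and -0.664 with them.

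The gradient ran through all 5 quintiles. The median log2 change, in a fit without a filter on low counts, was 0.12 in the quintile with the least promoter GC, then 0.01, -0.03 and -0.04, and -0.06 in the quintile with the most. In the quintile with the least, 225 of 2958 genes were higher at an unadjusted p under 0.05 and 40 lower (7.61% and 1.35%). In the quintile with the most, 119 of 2912 were higher and 331 lower (4.09% and 11.4%). Over all 29978 genes of that fit the shares were 5.12% and 4.97%. Spearman's rho between promoter GC and log2 change was -0.224 across genes, so promoter GC orders only a small part of the differences.

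Trained mitochondria showed a smaller gradient of the same direction, with medians of 0.06 and -0.04 at its ends. Their share on the genes with the least promoter GC rose from 12.5% to 12.99% (exact permutation q = 0.00668), and that on the genes with the most fell from 25.04% to 24.6% (q = 0.00181). Whole muscle of the same sedentary rats ran the other way, with medians of -0.03 and 0.02, and neither share passed there (16.6% and 15.7%, q = 0.280, and 16.2% and 17.4%, q = 0.202). Taken per rat, the range difference between mitochondria and muscle was 1.77 percentage points for the least and -1.92 for the most promoter GC (exact permutation q = 0.0354 each).

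Genes whose RefSeq span is 66144 bases or more took 31.6 ± 0.413% of the counts on all matched genes in the lower range and 32.7 ± 0.940% in the upper range (exact permutation q = 0.00596), and this call also held with any library left out (q at most 0.0250) and without rats 15, 20 and 24 (q = 0.0162), where the difference was 0.668 percentage points against 1.06 with them. The quintile with the shortest span was at 8.55% and 8.47% (q = 0.202). In trained mitochondria the long genes rose from 31.8% to 32.8% (q = 0.00181), and in whole muscle they were at 33.9% and 34.9% (q = 0.482). Taken per rat, the range difference of the long genes in mitochondria lay 0.0244 percentage points from that in muscle (exact permutation q = 0.989), so no difference between the fractions was detected. Median log2 changes by span in sedentary mitochondria were -0.01, -0.07, -0.03, 0.01 and 0.04 from the shortest to the longest quintile.

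**Figure D4:**
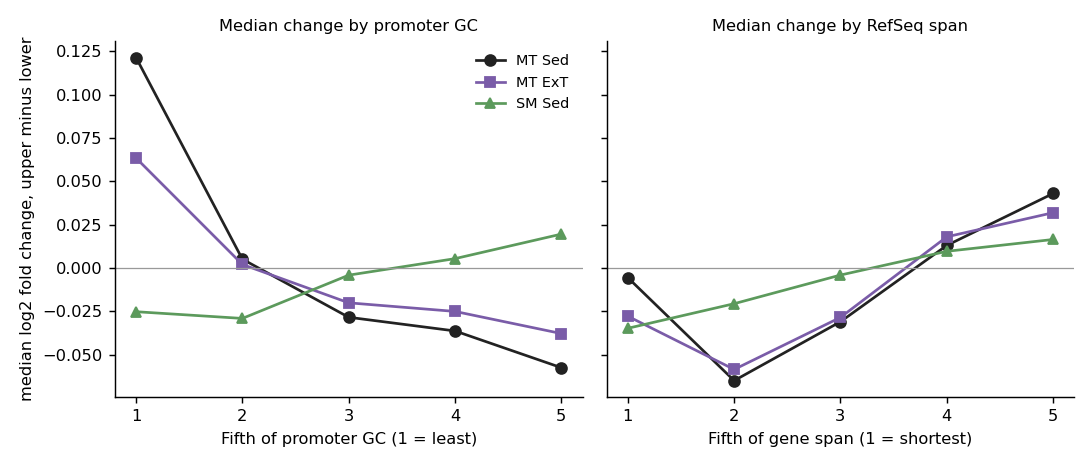
Median log2 change between the ranges for quintiles of genes by promoter GC (left) and by RefSeq span (right), in fits without a filter on low counts; lines are sedentary mitochondria (MT Sed), trained mitochondria (MT ExT) and sedentary whole muscle (SM Sed). By promoter GC, MT Sed falls from 0.12 to -0.06 and MT ExT from 0.06 to -0.04, while SM Sed goes from -0.03 to 0.02.

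No gene of the mitochondrial genome was called by edgeR in sedentary mitochondria. All 13 of its mRNAs were lower in the upper range relative to nuclear-encoded RNA, with a median log2 change of -0.99, but none passed. Mt-atp8, a small subunit of ATP synthase, was nearest at -1.32 (SE 0.59, edgeR adjusted p = 0.390). The value moved with how libraries were scaled: the median was -0.33 with library totals and -0.31 with the mitochondrial share as a covariate, and 1 of the 13 was then above 0. The median of the rRNA genes was -0.80, 0.00 and 0.08 in these fits, and so has no stable direction. Library totals shifted the median of all genes by 0.08. The library of rat 15 had 7696004 mitochondrial-genome counts beside 648501 nuclear-encoded counts. In the other lower libraries mitochondrial-genome counts ran from 146208 to 1243133. The fall of the mRNAs may therefore rest on this library, and their median change without it is not given here.

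Shares within the 13 mRNAs do not depend on that scaling. Mt-nd6, a complex I subunit and the only protein gene on the light strand, was at 1.63%, 1.85% and 4.71% at the lowest, median and highest in the lower range, and at 3.11%, 3.77% and 5.57% in the upper range (means 2.67 ± 1.35% and 4.02 ± 0.848%, exact permutation p = 0.0387, q = 0.252 over 13 tests). Mt-atp8 was at 0.0373%, 0.148% and 0.237% in the lower range and at 0.0507%, 0.0639% and 0.0966% in the upper range (0.132 ± 0.0694% and 0.0691 ± 0.0174%, exact permutation p = 0.0256, q = 0.252). Neither passed. In both genes the lower libraries of rats 11 and 15 lay with the upper range, at 4.49% and 4.71% for Mt-nd6 and at 0.0483% and 0.0373% for Mt-atp8. The strand setting of the counting is not given, so reads of Mt-nd6 cannot be told from antisense reads, and Mt-atp8 overlaps Mt-atp6.

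The trained rats gave the same pattern past the threshold. Mt-nd6 rose from 2.34 ± 0.555% to 4.12 ± 1.09% with no overlap (exact permutation q = 0.0121), and Mt-atp8 fell from 0.155 ± 0.0702% to 0.0693 ± 0.0234% (q = 0.0152). In whole muscle of the sedentary rats Mt-atp8 rose, from 0.102 ± 0.0271% to 0.169 ± 0.0223% with no overlap (exact permutation q = 0.00202). The range difference of its share was of opposite sign in mitochondria and in the muscle they came from, and that contrast, -0.130 percentage points per rat, passed over 35 tests (exact permutation q = 0.00544).

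The ratio of the rRNA genes AY172581.24 and AY172581.9 was 0.871, 1.06 and 1.16 at the lowest, median and highest in the lower range and 1.01, 1.17 and 1.30 in the upper range. It rose from 1.02 ± 0.113 to 1.15 ± 0.0897 (exact permutation q = 0.0307). The libraries had passed through ribosomal depletion, and the part of that step in this ratio and in the rRNA shares above was not tested. The call was lost without rat 4 (q = 0.0637), 8 (0.0658), 12 (0.0558), 20 (0.0575) or 24 (0.0517), and without rats 15, 20 and 24 together (0.0785). In trained mitochondria the ratio rose from 0.938 to 1.15 (q = 0.00181), and in whole muscle it was 1.00 and 0.961 (q = 0.224). Per rat, mitochondria and muscle differed by 0.178 between the ranges (exact permutation q = 0.0245).

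**Figure D5:**
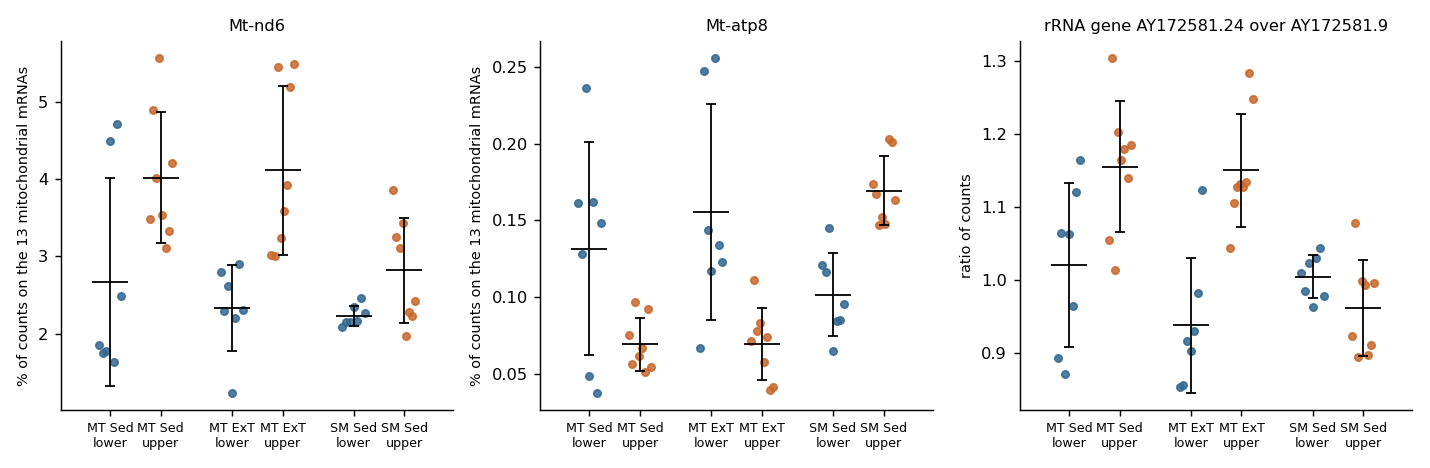
Share of Mt-nd6 (left) and Mt-atp8 (middle) among the counts on the 13 mitochondrial mRNAs, and the ratio of the rRNA genes (right), by range of rat numbers in sedentary mitochondria, trained mitochondria and sedentary whole muscle; points are libraries, bars the mean and error bars the SD. Mt-atp8 averages 0.132% and 0.0691% in MT Sed, 0.155% and 0.0693% in MT ExT, and 0.102% and 0.169% in SM Sed.

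No gene list held a called member in sedentary mitochondria, where 0.0259% of all genes tested were called. Factors that maintain and express mitochondrial DNA had a median log2 change of 0.14, with 19 of 26 above 0 in the fit without a filter (all genes: 0.02, with 52.6% above 0). At an unadjusted p under 0.05, 3 were higher and 1 lower (all genes: 5.12% and 4.97%). In trained mitochondria 18 of 26 were above 0 (all genes: 51.3%), and in whole muscle 22 of 26 (all genes: 49.9%). The tilt is therefore not particular to sedentary mitochondria. Mterf4, which guides assembly of the mitochondrial ribosome, was at 7.45 and 14.2 CPM (log2 change 0.93, SE 0.23, edgeR adjusted p = 0.0791). Slirp, a partner of Lrpprc in keeping mitochondrial mRNAs stable, was at 0.49 (adjusted p = 0.344), and Fastkd1, of a family of mitochondrial RNA-binding proteins, at 0.41 (adjusted p = 0.274). Polrmt, the mitochondrial RNA polymerase, was at -0.35 in sedentary and -0.37 in trained mitochondria (adjusted p = 0.366 and 0.380).

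Receptor genes were shifted as a group. Of 1267 fitted without a filter, 108 were higher and 3 lower at an unadjusted p under 0.05 (8.52% and 0.237%, against 5.12% and 4.97% of all genes), and their median log2 change was 0.21. In trained mitochondria 60 of 1268 were higher and 6 lower (all genes: 3.97% and 4.04%), with a median of 0.10. lncRNA genes had a median of 0.08, with 159 of 2485 higher and 59 lower. snRNA genes had a median of 0.22, with 71 of 1480 higher and 23 lower, and, with the filter, no snRNA gene was abundant enough to be tested, so single members are near the limit of the depth.

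Respiratory chain genes were at a median of 0.04, with 3 of 94 higher and 3 lower at an unadjusted p under 0.05 (3.19% each, against 5.12% and 4.97% of all genes). Ndufs8, an iron-sulfur subunit of complex I, was at -0.74 (edgeR adjusted p = 0.0899) and Ndufaf7, a complex I assembly factor, at 0.48 (0.138). Mitochondrial ribosomal proteins had a median of 0.06 and cytosolic ribosomal proteins 0.02. Fast-fibre genes were at a median of -0.12 over 10 members, but with library totals 8 of 10 were above 0 (median 0.19), so their direction is not fixed. Slow-fibre genes were at -0.03 over 11 (0.09 with library totals). Collagen and matrix genes were at -0.37, with 2 of 19 above 0. Their median was -0.005 with library totals, where 9 of 19 were above 0, and -0.16 with the mitochondrial share as a covariate. With library totals the median was thus near 0, so their direction is not fixed either. Summed, these genes took 0.234 to 1.04% of nuclear-encoded counts in the lower range (mean 0.382%). In the upper range they took 0.233 to 0.379% (mean 0.290%; exact permutation p = 0.638, q = 0.780). The highest lower library lay above every upper one, and the change without it is not given here.

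Summed markers of other cell types were compared in 11 lists, and none passed. Satellite cell markers took 0.0482 to 0.0540% of nuclear-encoded counts in the lower range and 0.0425 to 0.0504% in the upper range (exact permutation p = 0.0106, q = 0.116). Endothelial markers took 0.0946 to 0.116% and 0.0809 to 0.0990% (exact permutation p = 0.0361, q = 0.198). Immune markers took 0.0782 to 0.0967% and 0.0868 to 0.0966% (q = 0.450), and erythroid markers 0.0238 to 0.0318% and 0.0201 to 0.0311% (q = 0.667). No marker was at 0 in these lists. The part of other cell types, depth and nuclear rRNA in the range differences was not tested.

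In edgeR's interaction test, 13 of 27677 genes (0.047%) had a range difference that differed between mitochondria and whole muscle of the same rats, with a contrast above 0 in 10 (0.0361%) and below 0 in 3 (0.0108%). At an unadjusted p under 0.05 there were 2460 (8.89%). Cops3, a subunit of the COP9 signalosome, was at 7.05 and 11.5 CPM in mitochondria and at 79.0 and 63.5 CPM in muscle. Tet1, an enzyme that oxidises methylated cytosine, was at 13.7 and 18.8 CPM in mitochondria and at 30.7 and 23.2 CPM in muscle, and Rdx, a linker of actin to membranes, at 10.4 and 15.8 CPM and at 184 and 160 CPM. Trafd1, a regulator of innate immune signalling, went the other way, from 16.7 to 11.6 CPM in mitochondria and from 35.3 to 40.1 CPM in muscle. The others were Rasgrp3, Rnase1l2, Taz, Slc15a2, Metap1, Ubxn10 and Ufm1, with a positive contrast, and Sap30l and RT1-S3, with a negative one. With rat as a replicate block, 0 genes passed (1835 at an unadjusted p under 0.05) and the adjusted p of these 13 was 0.0595 to 0.175, and with DESeq2 88 passed. None of the 5 genes called within sedentary mitochondria was among the 13.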

How the data were processed

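The authors deposited raw counts per gene for mitochondria and whole muscle, as whole numbers for 30560 rat genes. Per the submitters' processing notes, FastQC 0.74, cutadapt 4.6, STAR 2.7.11a, HTSeq and the build mRatBN7.2 were used; their settings, strand included, are not given in the sources used here. The 37 genes of the mitochondrial genome were set apart from the 30523 others, called nuclear-encoded. Libraries were placed by title, and the members and lists were chosen with earlier results of these data known.

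Genes were tested with edgeR 4.0.16 (R 4.3.3; TMM factors, filterByExpr, robust quasi-likelihood F-test, Benjamini-Hochberg adjustment at 0.05 over all genes of a fit), with a script tested on simulated data. Each fit held only the libraries it compared. Alternatives were DESeq2 1.42.0, RLE factors, library totals, no filter beyond 1 count, nuclear-encoded genes only, the mitochondrial share as a covariate, thinning to the smallest total, and each library left out. Lists are described by counts at an unadjusted p under 0.05 in the fit without a filter. Shares per library were compared with two-sided exact permutation tests (computed with numpy 2.4.6), whose smallest possible p is 0.000311. CPM are TMM-scaled. Figures were drawn with matplotlib 3.10.9.

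Named genes are all called genes with a symbol, the mitochondrial rRNA and mRNA genes as a group, and, chosen after their values were seen, the genes next in order of p and members of lists at an unadjusted p under 0.05. Rat number pairs mitochondria and muscle because both come from the same animal; the median same-rat correlation of deviations was 0.00329 (-0.0586 to 0.109) over 12653 genes, against 0.00103 between different rats. No libraries of a range agreed within sampling noise (chi-square per degree of freedom at least 1.54 over 49 pairs). Depth gives a floor of 3 counts, and floors cover counting error only.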

Additional observations from a re-analysis of the deposited data

Results flagged for a closer look

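Within each range, 13 of the 86 sets of values checked held a library far from the rest. Chance flags about 1 in 20 of independent sets, but these sets overlap and share libraries. Many of the flags were of rat 15, so the 2 rates cannot be compared directly. Rat 15 was far above the other lower libraries in log2 total counts (22.99) and in its shares of nuclear-encoded counts on respiratory chain genes (0.244%), cytosolic ribosomal protein genes (0.285%), muscle genes (1.37%), nuclear rRNA genes (3.68%) and its 10 most abundant genes (5.83%), and far below them on protein-coding genes (89.1%). Rat 11 stood above the lower range in log2 nuclear-encoded counts (19.94), and rat 19 above the upper range (20.01). In the upper range, rat 20 was highest on muscle genes (1.79%) and on its 10 most abundant genes (4.43%), rat 24 on respiratory chain genes (0.237%), and rat 23 was lowest on snoRNA genes (0.317%).

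The range difference differed between mitochondria and whole muscle, per rat and by exact permutation test, for 6 measures of 35: the shares of lncRNA (0.359 percentage points) and receptor genes (0.216), of genes with the least (1.77) and the most promoter GC (-1.92), the rRNA gene ratio (0.178) and the share of Mt-atp8 among mitochondrial mRNAs (-0.130). The same was called for 13 genes by edgeR's interaction test without a block for rat. The receptor contrast nearly repeats the difference within mitochondria, because whole muscle held almost none of these counts. So does the lncRNA contrast, because the lncRNA share of whole muscle hardly differed between the ranges.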

How the results depend on the processing

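The 5 genes called in sedentary mitochondria became 18 with DESeq2, 0 with library totals, 77 with the mitochondrial share as a covariate (all 5 among them) and 1 after thinning. The number ran from 0 to 52 with a library left out. In 2 fits chosen after seeing the data and over 13272 genes, 0 passed among genes with a promoter GC value and 0 with the promoter GC trend removed. Of the 5 called genes only Gria4 has such a value. Ntn1, Cacna1h, Ppard and Mgam were not in these 2 fits, whose counts therefore do not bear on them. In trained mitochondria 0 became 8 with DESeq2, 4 with no filter, 3 with the covariate and 2 after thinning (0 to 7 leave-one-out). In whole muscle 35 became 418 with DESeq2 and 20 with no filter (0 to 162 leave-one-out). The arms differed in 0 genes under all 7 alternatives run. Library measures called in sedentary mitochondria went from 4 to 0 without rats 15, 20 and 24 (0 to 6 leave-one-out). In trained mitochondria they went from 5 to 8 without nuclear rRNA genes and to 8 without the 10 most abundant genes (3 to 9 leave-one-out), and in whole muscle from 4 to 2 without nuclear rRNA genes. Called shares of mitochondrial mRNAs ran from 2 to 9 in trained mitochondria and from 2 to 5 in whole muscle. The 5 called genes kept their sign in the fits that held them. With library totals or the covariate the medians of mitochondrial rRNA genes (-0.80 to 0.08), genes of other small ribonucleoprotein RNAs (-0.59 to 0.44) and fast-fibre genes (-0.12 to 0.19) changed sign, as did other list medians near 0. The cause of these moves was not tested.

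With rat as a replicate block, the 13 genes whose range difference differed between mitochondria and whole muscle became 0, and 4 with the mitochondrial share added to the block. Without the block they were 88 with DESeq2, 7 with RLE factors, 49 with library totals, 8 with nuclear-encoded genes only and 1 after thinning. No paired analysis was possible within mitochondria because the 2 ranges share no rats.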
